A study of Mus musculus with 8 samples.

Results

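The stabilins and other scavenger receptors were followed in the livers of 5-week-old mice that lack Stab1. The members were the 9 genes Stab1, Stab2, Mrc1, Fcgr2b, Msr1, Colec12, Scarb1, Scarb2 and Cd36, taken by symbol from a table of 19348 genes. All 9 were found, each on a single row, and all 9 passed the filter on low counts. Messenger RNA of whole liver had been sequenced from 5 Stab1 knockout libraries (KO) and 3 wild-type libraries (WT), all at an age of 5 weeks. The labels give neither the strain nor how the Stab1 allele was disrupted. Nor do they tie each library to its own mouse, so the p-values below speak of library-to-library spread, part of which may be technical.

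Scavenger receptors are membrane proteins that bind modified proteins, lipoproteins, matrix fragments and microbial surfaces and carry them into the cell for breakdown. In liver most of this clearance is done by sinusoidal endothelial cells, which line the capillaries between hepatocyte plates, and by Kupffer cells, the resident macrophages. The stabilins are large homologous receptors built of epidermal-growth-factor-like and fasciclin domains with a hyaluronan link module. Both are made by sinusoidal endothelial cells, and stabilin-1 is also made by some macrophages.

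The libraries held 4.85 to 10.8 M (mega) uniquely mapped reads. The shallowest, knockout library 1, also stood apart in sex-linked genes: Xist had 3 reads there and 4445 to 8222 elsewhere, and Ddx3y, on the Y chromosome, 320 reads there and 0 to 4 elsewhere. By these reads it came from a male and the other libraries from females, so results that rest on it are given with and without it. The hepatocyte markers, 16 of 16 detected, summed to 119836 to 183667 CPM in KO and 195632 to 204589 CPM in WT libraries, where CPM is reads scaled to library size after TMM (trimmed mean of M values) correction. Much of that sum was Alb, at a mean of 8.69e+04 CPM in KO and 1.23e+05 CPM in WT libraries. Over the 16 genes the median log2 fold change was -0.15, with 5 positive and 11 negative. In 8 libraries of bulk tissue, fewer cells of a type and less RNA per cell cannot be told apart.

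The start regions of the stabilin pair are shown because the main contrast of these data is the loss of 1 homologue beside the level of the other. They are bases upstream of the outermost end of each gene in RefSeq (GRCm38.p6), both on the minus strand, 240 bases at chr14:31168652-31168891 for Stab1 and 154 bases at chr10:87008039-87008192 for Stab2. Capitals mark GGAAG, an extended form of the GGAA core of ETS factor motifs, or its reverse complement CTTCC. The shorter GGAA is not marked.
Stab1: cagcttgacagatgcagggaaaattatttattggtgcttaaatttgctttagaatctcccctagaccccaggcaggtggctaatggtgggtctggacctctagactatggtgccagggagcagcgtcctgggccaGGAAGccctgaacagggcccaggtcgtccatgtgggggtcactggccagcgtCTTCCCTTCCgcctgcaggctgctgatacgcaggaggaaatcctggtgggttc
Stab2: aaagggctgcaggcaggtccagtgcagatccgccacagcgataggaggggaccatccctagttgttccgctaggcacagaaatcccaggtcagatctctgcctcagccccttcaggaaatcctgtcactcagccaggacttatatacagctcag
The Stab1 window held the motif GGAAG once on the gene's strand and 2 times on the other, without overlap. The Stab2 window held it on neither strand, although the shorter GGAA is in both windows. Of the 32851 promoter windows of the RefSeq table, 62.2% held the motif on either strand in their first 240 bases and 45.3% in their first 154, so the matches are a description only.

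Stab1, the targeted gene, was nearly absent from all 5 knockout libraries, at 1.22 ± 0.378 CPM in KO and 51.0 ± 4.52 CPM in WT livers, while its homologue Stab2 averaged 55.7 ± 7.45 CPM in KO and 65.6 ± 3.27 CPM in WT livers (SD, n = 5 and 3). Stab1 (gene 192187, 7995 bases in the table) had 1.37, 0.557, 1.51, 1.38 and 1.27 CPM in KO libraries 1 to 5, against 56.1, 49.4 and 47.5 CPM in WT libraries 1 to 3. The groups lie far apart, with knockout library 2 the lowest of all. Stab1 fell by 5.38 on the log2 scale (95% interval -5.88 to -4.88, edgeR adjusted p = 3.14e-06). It was the only 1 of the 9 members that passed an adjusted p of 0.05, in a table where 0.227% of 12338 tested genes were called in either direction and 0.154% were called lower in KO.

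The Stab1 reads that remained in knockout libraries were few. They amounted to 2.39% ± 0.741 (SD, n = 5) of the WT mean, with the lowest value, 1.09% (exact Poisson 95% interval 0.355 to 2.55%, counting error only), in knockout library 2 and the highest, 2.96% (1.69 to 4.8%), in knockout library 3. Reads covered 3.93, 3.06, 8.71, 7.49 and 6.15% of the gene's length in KO libraries 1 to 5, and 90.63, 82.16 and 73.11% in WT libraries 1 to 3 (exact two-sided permutation p = 0.0179, the smallest that the 56 divisions of the libraries allow). So few reads can cover only a small part of the gene, so this p-value follows from the read counts and is not separate evidence.

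A gene with a single read had a median of 49 bases covered in every library, which gives the length of 1 read. The 7, 5, 16, 13 and 11 Stab1 reads of KO libraries 1 to 5 covered 314, 245, 696, 599 and 492 bases. That is 44.9, 48.9, 43.5, 46.1 and 44.7 new bases per read, close to a full read each time, so few of these reads overlapped. Other genes of at least 4000 bases with 5 to 16 reads had medians of 45.9, 44.0, 45.2, 45.1 and 43.5 bases per read in the same libraries, over 382 to 458 genes. The table gives no read positions, so reads that keep to 1 stretch of the gene cannot be told apart from reads along all of it.

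**Figure D1:**
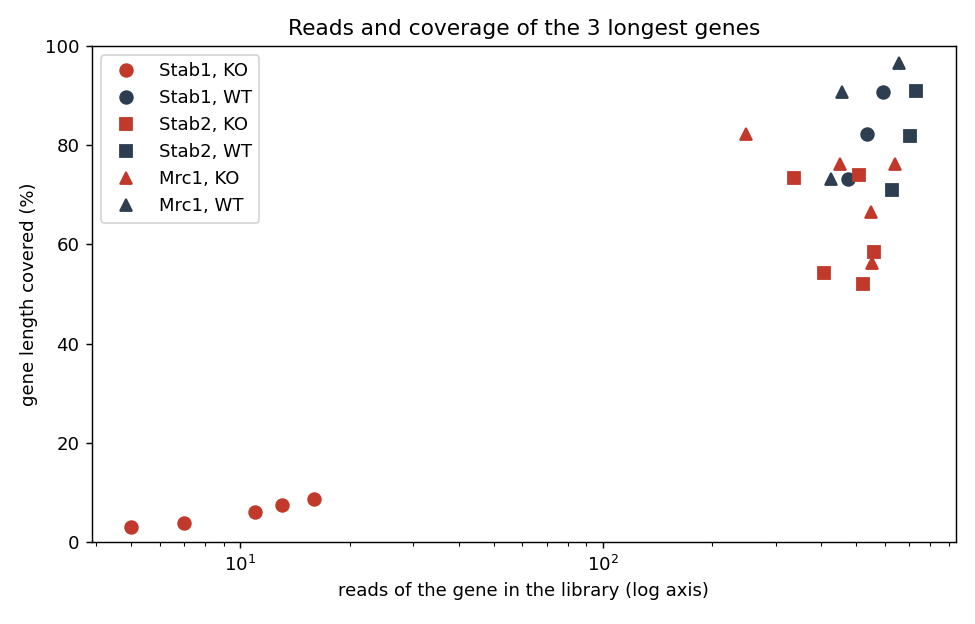
Percent of the gene's length covered by reads (vertical axis) against the gene's reads in the library (horizontal log axis) for Stab1, Stab2 and Mrc1, 1 point per library, KO in red and WT in dark blue. The 5 KO points of Stab1 sit at 5 to 16 reads and 3.06 to 8.71% coverage, while several KO points of Stab2 and Mrc1 lie at 52.07 to 58.49% despite 409 to 560 reads.

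Stab2, the endocytic hyaluronan receptor of sinusoidal endothelium (gene 192188), had 65.7, 45.6, 52.8, 55.2 and 59.0 CPM in KO libraries 1 to 5, against 69.2, 64.9 and 62.8 CPM in WT libraries 1 to 3. The 4 female KO libraries lay below all WT libraries, and the male knockout library 1 lay within the WT range. The log2 fold change was -0.24 (SE 0.14, 95% interval -0.55 to 0.07, edgeR adjusted p = 0.443), so the interval runs from a level 0.682 times to 1.05 times that of WT. For whole-liver CPM in this fit, which has no covariate, a rise of Stab2 by more than about 5% lies outside that interval. The interval sets no such bound per endothelial cell. Without knockout library 1 the log2 fold change was -0.31 (95% interval -0.61 to -0.01, adjusted p = 0.186), still not called.

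Beside Stab2, the other markers of sinusoidal endothelium lay on the same side. Of 23 tested, 21 had negative and 2 positive log2 fold changes, with a median of -0.34 against -0.01 over all tested genes, and 0 passed the adjusted test in edgeR or DESeq2 (8 had an unadjusted p below 0.05, against 13.6% of all genes). Their summed level was 522.9 to 659.8 CPM in KO and 609.1 to 875.8 CPM in WT libraries. That sum leaves out the members. Relative to it, the CPM of Stab2 stood at 9.96, 8.72, 8.84, 9.46 and 9.47% in KO libraries 1 to 5, and 7.90, 8.94 and 10.3% in WT libraries 1 to 3, so the KO values lay inside the WT range. The CPM of Stab1 stood at 0.107 to 0.253% of the same sum in KO and 6.40 to 7.79% in WT libraries.

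How evenly reads covered long genes also differed between libraries, with KO libraries 2, 4 and 5 below all WT libraries. Over genes of at least 4000 bases with 300 to 700 reads, the median coverage was 86.15, 81.38, 86.92, 82.63 and 83.44% in KO libraries 1 to 5 and 89.81, 88.92 and 84.1% in WT libraries 1 to 3. These genes were chosen in each library by its own reads, from 405 in knockout library 1 to 853 in WT library 2. For Stab2 itself the coverage was 73.38, 54.35, 58.49, 52.07 and 73.9% in KO libraries 1 to 5 and 90.89, 81.93 and 70.96% in WT libraries 1 to 3. With that median as a covariate, a fit added after seeing the data, the log2 fold change of Stab2 was -0.12 (adjusted p = 0.999) and that of Stab1 -5.17 (adjusted p = 9.58e-06). The same covariate without knockout library 1 gave -0.22 for Stab2 (adjusted p = 0.788). Because the covariate goes partly with genotype and may also carry depth, these fits cannot fully separate evenness from genotype. The median of the sinusoidal endothelial markers was -0.11 with the covariate, and -0.14 with it and without knockout library 1.

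Within WT liver Stab1 lay below Stab2 per gene length in all 3 libraries. On the scale of reads per kilobase of gene, scaled to library size (RPKM), Stab1 reached 0.826, 0.776 and 0.771 times the level of Stab2 in WT libraries 1 to 3, a mean of 0.791 ± 0.0306 (SD, n = 3). In KO libraries 1 to 5 the same ratio was 0.0212, 0.0125, 0.0291, 0.0254 and 0.0219. The summed stabilin level was 6.98 ± 0.946 RPKM in KO and 14.4 ± 0.966 RPKM in WT liver (SD, n = 5 and 3), and it ran from 5.66 to 8.23 RPKM in KO and from 13.6 to 15.5 RPKM in WT libraries. The Stab2 RPKM values, 5.59 to 8.06 in KO and 7.70 to 8.49 in WT, thus stood nearly alone in the KO sum.

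**Figure D2:**
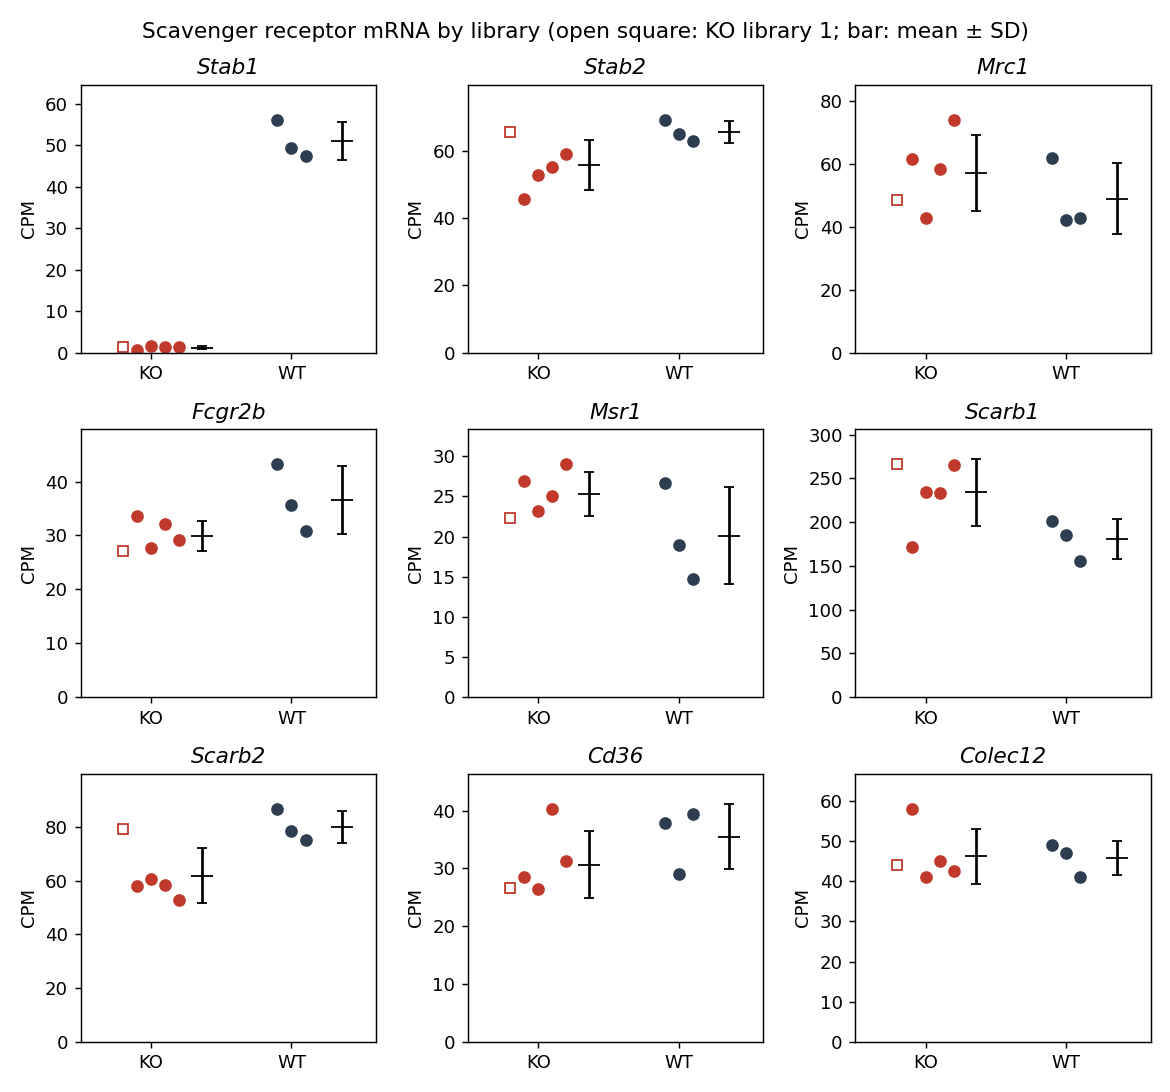
CPM of each of the 9 genes (vertical axes start at 0) in the 5 KO libraries, in red with knockout library 1 as an open square, and the 3 WT libraries, in dark blue, with the mean ± SD as a black bar. Stab1 is at or below 1.51 CPM in every KO library, and for Stab2 and Scarb2 the filled KO points lie below all WT points while the open square does not.

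The lectin-type and Fc receptors of the same cells showed no called difference. Mrc1, the macrophage mannose receptor, which clears mannose-ending glycoproteins and collagen chains and is made by both sinusoidal endothelial and Kupffer cells, had 48.5, 61.6, 42.6, 58.2 and 73.9 CPM in KO libraries 1 to 5, against 61.9, 42.0 and 42.7 CPM in WT libraries 1 to 3. The groups overlap almost wholly, since WT library 1 was higher than 4 of the KO libraries. Its log2 fold change was 0.22 (SE 0.21, 95% interval -0.24 to 0.68, adjusted p = 0.616). It was 0.43 without WT library 1, 0.12 and 0.13 without WT libraries 2 and 3, 0.11 without knockout library 5 and 0.13 with the coverage covariate, none of them called. Its coverage was lowest in knockout library 2, at 56.29%, and highest in WT library 1, at 96.58%.

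Fcgr2b, the inhibitory Fc gamma receptor, which takes up small immune complexes in sinusoidal endothelium, had 27.2, 33.6, 27.7, 32.2 and 29.1 CPM in KO libraries 1 to 5, against 43.2, 35.7 and 30.8 CPM in WT libraries 1 to 3. The KO values were close together, 3 of the 5 lay below all WT values, and WT library 3 lay among the KO libraries. The log2 fold change was -0.29 (SE 0.15, 95% interval -0.61 to 0.04, adjusted p = 0.397). Without WT library 1 it was -0.15 (adjusted p = 0.813), and with the coverage covariate and without knockout library 1 it was -0.19 (adjusted p = 0.854). Relative to the sinusoidal endothelial marker sum, which leaves it out, the CPM of Fcgr2b stood at 5.07% ± 0.903 in KO and 4.96% ± 0.0745 in WT libraries (SD, n = 5 and 3).

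The class A receptors, trimers with a collagen-like stalk, showed no called difference either. Msr1, the macrophage receptor for acetylated lipoprotein and other polyanions, had 22.3, 26.9, 23.2, 25 and 29.0 CPM in KO libraries 1 to 5, against 26.7, 19.0 and 14.7 CPM in WT libraries 1 to 3. Only WT libraries 2 and 3 lay below the KO range. The log2 fold change was 0.33 (SE 0.19, 95% interval -0.10 to 0.76, adjusted p = 0.448), without WT library 1 it was 0.59 (adjusted p = 0.736), and without WT library 3 it was 0.15 (adjusted p = 0.639).

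Colec12, a receptor with a C-type lectin head made by endothelial cells, had 44.2, 58.1, 41.0, 45.2 and 42.6 CPM in KO libraries 1 to 5, against 49.2, 47.0 and 41.1 CPM in WT libraries 1 to 3. Knockout library 2 was the highest of all 8, knockout library 3 lay just below the WT values, and the others lay among them. Its log2 fold change was 0.01 (SE 0.15, 95% interval -0.31 to 0.34, adjusted p = 0.970), the value nearest to 0 among the members, and its sign turned in 4 of the alternative fits.

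Kupffer cell markers stood beside Mrc1 and Msr1 as follows. Of 26 tested, 18 had positive log2 fold changes, with a median of 0.18 and 0 called by edgeR or DESeq2 (4 at an unadjusted edgeR p below 0.05), and their summed level was 1242 to 1601 CPM in KO and 1046 to 1420 CPM in WT libraries. Relative to that sum, which leaves out both receptors, the CPM of Mrc1 stood at 3.92% ± 0.725 in KO and 3.93% ± 0.883 in WT libraries, and that of Msr1 at 1.75% ± 0.219 in KO and 1.64% ± 0.533 in WT libraries (SD, n = 5 and 3). Mrc1 is also made by sinusoidal endothelial cells, so the Kupffer cell sum covers only part of its sources. Per gene length Mrc1 stood at 1.59 ± 0.411 times Stab2 in KO and 1.13 ± 0.205 times in WT libraries (SD, n = 5 and 3), and the ranges overlapped. The part of cell content in the members' levels was not tested.

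The CD36 family, 2-pass membrane proteins with a lipid-binding ectodomain, held the most abundant members and those with the smallest p-values after Stab1. Scarb2 encodes the lysosomal membrane protein that carries glucocerebrosidase to lysosomes. It had 79.2, 58.1, 60.6, 58.3 and 52.7 CPM in KO libraries 1 to 5, against 86.7, 78.3 and 75.2 CPM in WT libraries 1 to 3. The 4 female KO libraries lay below all WT libraries, and the male knockout library 1 lay among the WT values. With all libraries the log2 fold change was -0.38 (SE 0.15, 95% interval -0.71 to -0.04, edgeR adjusted p = 0.343), not called.

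Without knockout library 1 the log2 fold change of Scarb2 was -0.49 (SE 0.13, 95% interval -0.77 to -0.20), with an edgeR adjusted p of 0.0784 and a DESeq2 adjusted p of 0.0177. Scarb2 was therefore called by DESeq2 in that setting, in which DESeq2 called 8.61% of all tested genes and 3.09% lower in KO, and not by edgeR, which called 0.928% there. With all libraries DESeq2 called 0.884% of tested genes and left Scarb2 uncalled. In the fit with the coverage covariate its log2 fold change was -0.23 (adjusted p = 0.999), and -0.39 (adjusted p = 0.542) without knockout library 1 as well.

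Scarb1, the receptor that takes cholesteryl esters from high-density lipoprotein into hepatocytes, had 266, 172, 234, 233 and 265 CPM in KO libraries 1 to 5, against 201, 185 and 156 CPM in WT libraries 1 to 3. Of the KO libraries, 4 lay above all WT libraries and knockout library 2 lay within the WT range. The log2 fold change was 0.37 (SE 0.18, 95% interval -0.02 to 0.77, adjusted p = 0.380). Without knockout library 1 it was 0.31 (adjusted p = 0.279), and without knockout library 2 it was 0.47 (adjusted p = 0.551). It was 0.28 without WT library 3 (adjusted p = 0.408), 0.29 with the replicate block (adjusted p = 0.970) and 0.59 with the coverage covariate (adjusted p = 0.721).

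Cd36, a fatty acid transporter and receptor for oxidised lipoprotein, had 26.6, 28.5, 26.5, 40.3 and 31.3 CPM in KO libraries 1 to 5, against 37.9, 29.0 and 39.4 CPM in WT libraries 1 to 3. Knockout library 4 was the highest of all 8 libraries and the groups overlap. The log2 fold change was -0.21 (SE 0.18, 95% interval -0.60 to 0.18, adjusted p = 0.587). It was -0.34, -0.33 and -0.12 without WT library 2, knockout library 4 and WT library 3 in turn, and -0.39 with the coverage covariate, none of them called.

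Within this family the levels of Scarb1 and Scarb2 lay on opposite sides, and their ratio did not overlap between genotypes. Per gene length Scarb1 stood at 2.80, 2.46, 3.21, 3.32 and 4.19 times Scarb2 in KO libraries 1 to 5, and at 1.93, 1.97 and 1.73 times in WT libraries 1 to 3. The means were 3.20 ± 0.652 in KO and 1.88 ± 0.131 in WT libraries (SD, n = 5 and 3). Knockout library 1 was within the KO spread here although it was high for both genes. Ratios were computed for 6 pairs of members with the levels already known, and 2 of them, this one and Stab1 to Stab2, did not overlap. The latter holds the targeted gene. Scarb1 and Scarb2 had the highest and lowest log2 fold changes of the other members (0.37 and -0.38), which favours a separated ratio. No share over other gene pairs was computed, so the ratio is a description without a test.

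**Figure D3:**
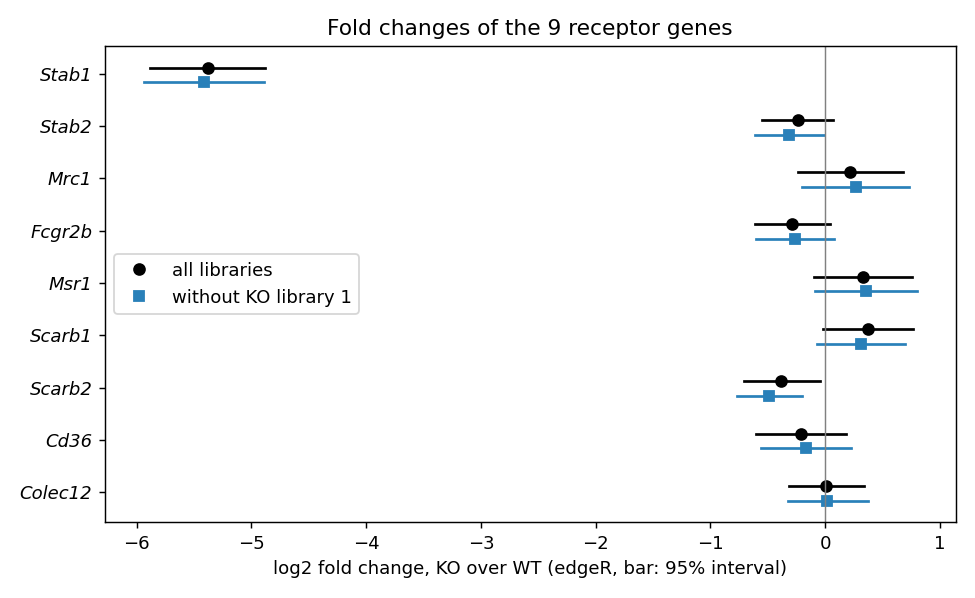
Log2 fold change of each gene, KO over WT, with its 95% interval from edgeR, with all libraries (black circles) and without knockout library 1 (blue squares). Stab1 lies at -5.38, and every other black point lies between -0.38 and 0.37, and among these only the Scarb2 interval leaves out 0 when all libraries are used.

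Of the 9 members, 1, Stab1, had KO values that did not overlap the WT values, all lower, while 3.61% of all tested genes had KO values wholly below and 3.04% wholly above. Without knockout library 1 this held for 3 members, Stab1, Stab2 and Scarb2, all lower, against 8.87% of all tested genes lower and 9.42% higher. Leaving Stab1 aside, 4 members had negative and 4 positive log2 fold changes, and over all tested genes 6282 were negative and 6056 positive.

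Levels per gene length ordered the members in much the same way in both genotypes. In KO livers the order was Scarb1 (92.4 ± 15.2 RPKM), Scarb2 (29.3 ± 4.81), Fcgr2b (19.2 ± 1.80), Colec12 (13.9 ± 2.05), Mrc1 (10.7 ± 2.28), Cd36 (8.60 ± 1.61), Msr1 (6.93 ± 0.745), Stab2 (6.83 ± 0.914) and Stab1 (0.152 ± 0.0473; SD, n = 5). In WT livers it was Scarb1 (71.4 ± 9.03 RPKM), Scarb2 (38.0 ± 2.81), Fcgr2b (23.5 ± 4.01), Colec12 (13.8 ± 1.27), Cd36 (9.93 ± 1.57), Mrc1 (9.18 ± 2.12), Stab2 (8.05 ± 0.401), Stab1 (6.38 ± 0.566) and Msr1 (5.53 ± 1.67; SD, n = 3). In WT livers the neighbours Cd36 and Mrc1, Mrc1 and Stab2, and Stab1 and Msr1 overlapped between libraries. In KO livers all neighbours from Fcgr2b down to Stab2 overlapped, while Stab1 was separated from Stab2.

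**Figure D4:**
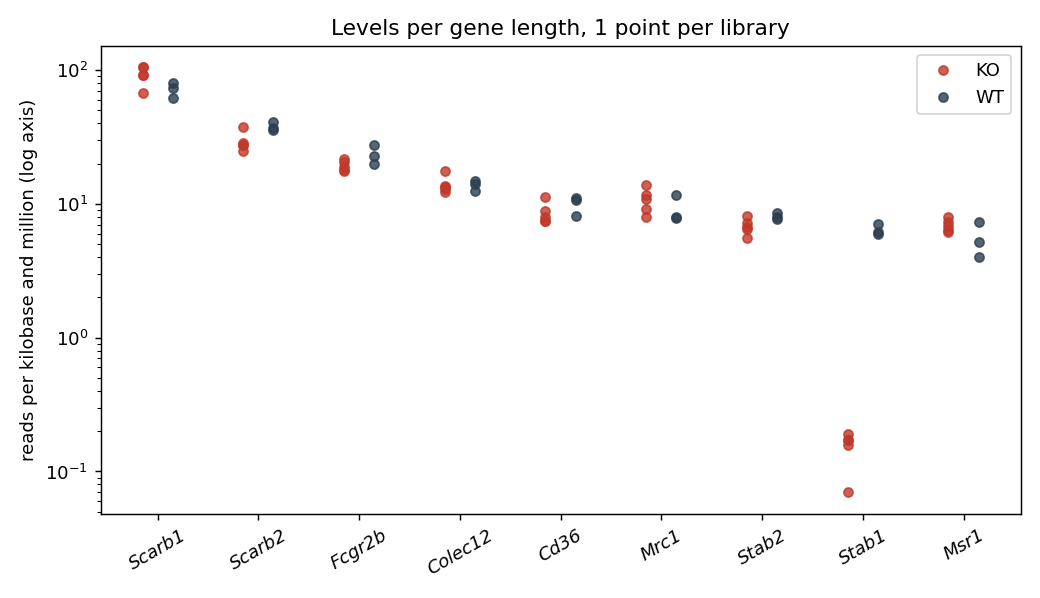
Level per gene length of the 9 genes in RPKM on a log axis, ordered by WT mean, with 1 point per library, KO in red to the left of WT in dark blue. Scarb1 is highest in both genotypes and the KO points of Stab1 lie at 0.0697 to 0.189, below every other point.

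The genes whose pattern over the 8 libraries was most like that of a member were found by the root mean square difference of centred log2 CPM. For Stab1 they were Lrit1, Rpl26 and Prom2 (differences of 0.50, 0.51 and 0.78 among 119 genes that varied enough to be compared), genes picked for following Stab1. Lrit1 and Rpl26 had log2 fold changes of -4.66 and -5.00. Prom2 averaged 0.0673 CPM in KO livers, under the floor of 3 reads, and 4.63 CPM in WT livers, so no fold is given. The counts are of uniquely mapping reads, so any Rpl26 reads that fit near-identical copies equally well would be left out. For Stab2 they were Fam222b, Pdzd2 and Scaf11, each at a difference of 0.05 among 11363 genes, with log2 fold changes of -0.22, -0.25 and -0.24 that were not called. For Mrc1 they were Trim12c, Lyz2, the lysozyme gene of macrophages, and Kctd12, at 0.11, 0.11 and 0.12 among 10421 genes, likewise not called (log2 fold changes 0.24, 0.34 and 0.31).

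Other scavenger receptors gave no call. Of 17 on the list 12 were tested, 7 with positive and 5 with negative log2 fold changes and a median of 0.15, and 0 passed the edgeR adjusted test (2 had an unadjusted p below 0.05, and DESeq2 called 0). Megf10 had no read in any library. The smallest p-values belonged to Lrp2, megalin, at 1.40 ± 0.416 CPM in KO and 0.543 ± 0.0731 CPM in WT livers (log2 fold change 1.34, adjusted p = 0.299), on 6 to 15 reads in KO and 5 to 6 in WT libraries. Cd44, another cell-surface hyaluronan receptor, was at 15.5 ± 3.97 CPM in KO and 9.31 ± 1.5 CPM in WT livers (0.74, adjusted p = 0.329). Cxcl16, a membrane-bound chemokine that also binds oxidised lipoprotein, had a log2 fold change of 0.40 (adjusted p = 0.396).

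Other uptake receptors of liver were likewise uncalled with all libraries. Of 30 listed 26 were tested, 12 positive and 14 negative with a median of -0.01, and 0 were called by edgeR or DESeq2 (3 had an unadjusted edgeR p below 0.05).

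Without knockout library 1, edgeR called 2 of the 26 tested uptake receptors, 1 higher and 1 lower. Values of the lower gene are not reported here. The gene called higher was Vldlr, a receptor for triglyceride-rich lipoprotein named after its values were seen. It rose by 1.71 on the log2 scale (SE 0.29, adjusted p = 0.0270), where 0.513% of all tested genes were called lower and 0.415% higher. Vldlr had 1.17, 48.3, 31.9, 52.4 and 48.0 CPM in KO libraries 1 to 5, against 20, 13 and 7.91 CPM in WT libraries 1 to 3. The 4 female KO libraries were above every WT library, and the male knockout library 1, with 6 reads, was below them all. With all libraries its log2 fold change was 1.42 (SE 0.73, adjusted p = 0.399).

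On the same list Clec4f, the Kupffer cell lectin, was at 210 ± 36.2 CPM in KO and 155 ± 26.9 CPM in WT livers (log2 fold change 0.44, adjusted p = 0.356), and Cd209f, a C-type lectin gene, had a log2 fold change of 0.95 (adjusted p = 0.336) on 6 to 20 reads in KO and 5 to 13 in WT libraries.

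Genes of the endocytic and lysosomal path that follows uptake were evenly split. All 32 on the list were tested, 16 positive and 16 negative, and 0 were called by edgeR or DESeq2 (2 had an unadjusted edgeR p below 0.05). Hexa, a lysosomal hexosaminidase, was at 46.3 ± 3.76 CPM in KO and 34.1 ± 7.07 CPM in WT livers (log2 fold change 0.44, adjusted p = 0.333). The recycling and early endosome GTPases Rab11a and Rab5a had log2 fold changes of 0.43 (adjusted p = 0.356) and 0.46 (adjusted p = 0.366). Without knockout library 1, DESeq2 called 1 of the 32, Rab5a, higher (0.56, adjusted p = 0.0422), in a fit where it called 8.61% of all tested genes, and edgeR did not (adjusted p = 0.0995).

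With all libraries the cell type lists had no called member in edgeR, and 1 in DESeq2, the hepatocyte gene Tat, tyrosine aminotransferase (425 ± 71.5 CPM in KO and 849 ± 337 CPM in WT livers, DESeq2 adjusted p = 0.0306, edgeR adjusted p = 0.264). Among sinusoidal endothelial markers, Kdr, the main receptor for vascular endothelial growth factor, was at 31.5 ± 6.68 CPM in KO and 53.3 ± 15 CPM in WT livers (log2 fold change -0.76, adjusted p = 0.301), Adgrf5 (listed as Gpr116) had -0.60 (adjusted p = 0.331) and the transcription factor gene Maf 0.72 (adjusted p = 0.327). Without knockout library 1 DESeq2 called 5 of these 23 markers, Kdr, Flt1, Dnase1l3 and Robo4 lower and Maf higher, beside 8.61% of all tested genes, and edgeR called 0. In the same fit DESeq2 called 3 erythroid genes and 1 each of the vascular endothelial, monocyte, stellate cell and hepatocyte markers, but 0 Kupffer cell and 0 B and T cell markers. Vascular endothelial markers had a median of -0.05 over 10 genes, with Cd34 at 0.92 (adjusted p = 0.416). Stellate cell markers had a median of -0.21 over 15 genes, 12 of them negative, with Reln at 50.2 ± 5.77 CPM in KO and 69.9 ± 1.39 CPM in WT livers (-0.48, adjusted p = 0.293).

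Monocyte markers had a median of 0.08 over 7 tested genes, hepatocyte markers -0.15 over 16, and B and T cell markers -0.16 over 5. These medians turned sign in some fits, to -0.09 for monocyte markers with the replicate block, to 0.05 for hepatocyte markers with the coverage covariate and to 0.18 for B and T cell markers without WT library 1 (-0.69 with the block). Erythroid genes had a median of 0.80 over 8 genes, all positive, and summed to 96.55 to 219.8 CPM in KO and 86.53 to 99.07 CPM in WT libraries. Their median was 0.21 with the replicate block and 0.38 with the coverage covariate. Among Kupffer cell markers C1qa, a complement component of macrophages, was at 72.2 ± 11.0 CPM in KO and 52.3 ± 8.30 CPM in WT livers (log2 fold change 0.47, adjusted p = 0.333).

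**Figure D5:**
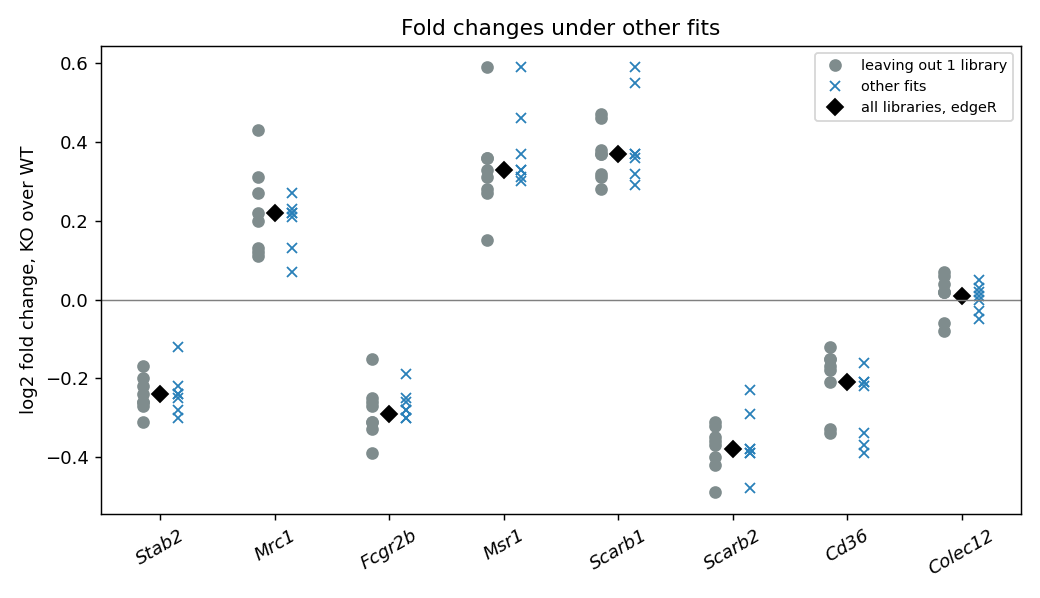
Log2 fold change, KO over WT, of the 8 members other than Stab1 with all libraries in edgeR (black diamonds), with 1 library left out (grey circles) and under the other fits (blue crosses). All members but Colec12 keep their sign throughout, and those of Scarb2 run from -0.49 to -0.23.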

How the data were processed

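Liver mRNA of 5 Stab1 knockout and 3 wild-type libraries was analysed. The sources used here do not name an aligner, counter, build, annotation or strand setting. Per the file headers, the authors deposited a gene table with, in each library, the gene's count of uniquely mapping reads, the percent of the gene's length covered, and RPKM. The deposited RPKM values equalled those recomputed from counts, lengths and totals (largest relative difference 8.29e-14), so levels per length were recomputed with TMM-scaled totals. A dash was read as 0, and reads on 229 rows sharing 113 identifiers were summed.

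Counts were tested with the edgeR quasi-likelihood F test (edgeR 4.0.16, R 4.3.3; filterByExpr, TMM, no covariate), with Benjamini-Hochberg adjustment over all 12338 tested genes and a threshold of 0.05. The SE is the size of the log2 fold change over the square root of F, and 95% intervals use it. The fit was tested on simulated counts. Alternatives were DESeq2 1.42.0, median-of-ratios factors, no filter, a replicate block, each library left out and, added after seeing the data, DESeq2 without knockout library 1 and a coverage covariate. A floor of 3 reads is 0.619 CPM in knockout library 1 and 0.278 to 0.335 CPM in the others. Counting intervals cover counting error only.

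The members and the gene lists (213 of 214 entries matched) were chosen with earlier results of these data known. Besides the members, the genes named are, in each list, those called or else up to 3 with the smallest p, and for Stab1, Stab2 and Mrc1 the 3 genes most alike in pattern. Values of some genes on the lists are not reported here.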

Additional observations from a re-analysis of the deposited data

Results flagged for a closer look

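In 18 sets of 5 KO values (CPM and coverage of each member), 3 had a library far from the other 4, with a gap above 0.71 of the whole range. Chance flags about 1 set in 20. Stab1 was lowest in knockout library 2, at 0.557 CPM, on 5 reads. Colec12 was highest in the same library, at 58.1 CPM. The coverage of Fcgr2b was highest in knockout library 3, at 91.7%, with the other KO libraries at 83.16 to 85.54%.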

How the results depend on the processing

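Of 12338 genes 28 were called. DESeq2 called 130, or 1057 without knockout library 1, the replicate block 8, and fits without 1 library 13 to 114 (114 without knockout library 1, 93, 15 and 13 without WT libraries 3, 1 and 2). Stab1 was called in all 15 alternatives, with log2 fold changes of -5.49 to -5.17. Scarb2 was the other member called, in DESeq2 without knockout library 1, which gave 2 called members. In the receptor and endocytic lists 0 genes were called, but 2 without knockout library 1 and 3 in DESeq2 without it; leaving out any 1 library gave 0 to 2. Colec12 turned negative without knockout library 2 or WT library 3 and with the coverage covariate, with all libraries (-0.05) or without knockout library 1 (-0.03); with 1 library left out it ran from -0.08 to 0.07. The other members kept their sign. The residual Stab1 level was 2.24 to 2.71% with 1 library left out. Correlations of the deviations of same-numbered libraries were -0.15 to 0.12, and those of different-numbered libraries -0.28 to 0.31. With only 3 same-numbered pairs, these values cannot decide whether the numbers pair the libraries. With the replicate block Stab1 had -5.49 (edgeR adjusted p = 0.00413) and Stab2 -0.28 (0.970). The causes of these differences were not tested.

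Knockout library 1 was the shallowest, the deepest library holding 2.23 times its reads, and genes under its floor of 0.619 CPM are not resolved there.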
